A study of Mus musculus with 18 samples.

Results

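The genes described here are the liver X receptors (LXRs) and the cholesterol efflux and lipid genes known as their targets, led by Apoe. They were taken by name: Apoe, Pltp, Abcg1, Abca1, Srebf1, Mylip, Nr1h2, Nr1h3 and Lpcat3. Of these 9 genes, 8 have a row among the 12960 genes detected in the series, and all 8 were among the 12787 genes that passed the filter on low values. Nr1h3, which encodes LXR alpha, was not analysed here. They were selected on measured values, the knockout against control differences of activated B cells. All values from activated libraries are therefore given for these 8 genes as a description, and tests are given only where no activated library enters the contrast. Activated and plasma libraries carry the same replicate numbers, and whether they come from the same mice is not in the labels. Plasma cell tests may therefore not be independent of the choice.

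LXRs are nuclear receptors that bind oxidised forms of cholesterol and act on DNA as partners of the retinoid X receptors (RXRs). They raise the transporters and apolipoproteins that carry cholesterol out of cells, a ubiquitin ligase that limits cholesterol uptake, and genes of fatty acid and phospholipid synthesis. The SREBP2 pathway works in the opposite sense, raising cholesterol synthesis and uptake when cell sterols are low. Apoe is best known from liver, macrophages and astrocytes.

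The series compares mice in which G9a, the histone H3 lysine 9 methyltransferase encoded by Ehmt2, can be deleted in B lineage cells with mice that carry only the recombinase. Knockout (KO) mice were homozygous for the floxed allele (G9afl/fl) and carried 1 allele of a Cre recombinase made in B lineage cells. Control (Ctrl) mice carried 1 allele of the same Cre without the floxed gene, so all 18 libraries come from Cre carriers. Ages are not given in the labels. Naive B cells came from mice without injection and were enriched from spleen with CD43 beads. Activated B cells (B220+GL7+) and plasma cells (CD138+, with intermediate or low B220) were sorted from spleen 72 h after 50 µg of lipopolysaccharide (LPS) in 100 µl was given into the tail vein, with F4/80+, Cd11b+ and Thy1.2+ cells gated out. Cell type, LPS and isolation method therefore cannot be told apart between naive cells and the others. Each of the 6 groups has 3 libraries of 1000 cells, and whether each stands for its own animal is not in the labels, so p-values speak only to the spread among these libraries, which may be technical.

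Values are the authors' RPKM (reads per kilobase of gene, set to a fixed total of reads), scaled between libraries and called scaled RPKM. Changes are differences of log2(scaled RPKM + 1), which understates the change of genes near 1. A gene was called at an adjusted p under 0.05 from limma over all tested genes. Depth, as estimated from the steps of low values, ran at 1.63 to 4.05 M reads in naive, 2.67 to 10.8 M in activated and 5.15 to 6.86 M in plasma cell libraries. Replicates spread most in naive cells: on the log2 scale, genes had a median SD of 0.388 in naive KO and 0.369 in naive Ctrl, and of 0.125 to 0.134 elsewhere. The fit over all 18 libraries uses a spread shared by all groups. Between plasma genotypes it called 0.61% of all tested genes, and the fit of plasma libraries alone 5.11%. Plasma differences that did not pass are therefore no evidence of equal levels. Ehmt2 RNA over the whole gene averaged 17.0 in naive KO and 19.4 in naive Ctrl libraries, 22.5 in activated KO and 22.3 in activated Ctrl, and 13.8 in plasma KO and 17.2 in plasma Ctrl. This value includes exons outside the floxed part, so it does not check the deletion. Summed B cell markers (8 genes) reached 5136 to 5345 in naive KO and 4648 to 5078 in naive Ctrl libraries, and summed plasma cell markers (7 genes) 11670 to 12988 in plasma KO and 12702 to 14341 in plasma Ctrl libraries. In activated cells 2 of the 8 B cell markers and 3 of the 7 plasma cell markers were called lower in KO, against 1.78% of all tested genes called in either direction. In plasma cells 1 of the 8 B cell markers was called lower in KO, against 0.172% of all tested genes, and 0 of the 7 plasma cell markers were called.

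Nr1h2 encodes LXR beta, the receptor form made in most tissues. Scaled RPKM were 38.7, 30.7 and 28.4 in naive KO libraries 1 to 3, against 37.2, 26.0 and 23.7 in naive Ctrl libraries 1 to 3. Activated KO libraries 1, 3 and 4 had 15.6, 13.4 and 14.9, against 15.0, 15.8 and 15.7 in activated Ctrl. Plasma KO libraries 1, 3 and 4 had 23.1, 22.7 and 22, against 24.6, 26.0 and 25.5 in plasma Ctrl. The receptor was thus present in every library, lowest in activated cells, and its genotypes overlapped in naive and activated cells. In plasma cells every KO library lay below every Ctrl library, by -0.16 on the log2 scale (95% interval -0.48 to 0.16, limma adjusted p = 1). That interval rests on a spread shared with the more variable naive libraries. Over 23 alternative settings, among them plasma libraries alone, the lowest limma adjusted p was 0.255. Between plasma and naive cells Nr1h2 fell in KO (log2 change -0.50, limma adjusted p = 0.00928) and did not pass in Ctrl (-0.16, adjusted p = 0.367). Whether that step differs between genotypes was tested as the difference of the KO effects, which gave -0.34 (95% interval -0.80 to 0.12, limma adjusted p = 0.465).

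Of the partner receptors, Rxrb was well measured, with means of 36.7 in naive KO and 43.3 in naive Ctrl libraries, 32.3 in activated KO and 35.2 in activated Ctrl, and 29.2 in plasma KO and 32.0 in plasma Ctrl. Rxra was near the detection limit, at 0.403 in activated KO and 0.511 in activated Ctrl libraries and 0.150 in plasma KO and 0.173 in plasma Ctrl libraries. Neither passed limma between genotypes in any cell type.

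Apoe encodes apolipoprotein E, a carrier of cholesterol released from cells, and had the highest level of the 8 genes in naive libraries on the scaled RPKM scale, which is per length. The gene lies on the reverse strand of chromosome 7 from 19696109 to 19699188 (GRCm38). Apoe measured 93.6, 71.7 and 114 in naive KO libraries 1 to 3, against 108, 99.4 and 86.1 in naive Ctrl libraries 1 to 3. Activated KO libraries 1, 3 and 4 had 2.79, 2.57 and 2.04, against 24.0, 59.7 and 60.2 in activated Ctrl libraries. Plasma KO libraries 1, 3 and 4 had 3.84, 2.80 and 3.91, against 24.6, 27.3 and 8.67 in plasma Ctrl libraries. The genotypes overlapped in naive cells. In activated and plasma cells every KO library was below every Ctrl library, and the Ctrl libraries themselves were uneven, with activated Ctrl 1 and plasma Ctrl 4 the low ones.

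In activated cells the mean was 2.47 ± 0.382 in KO and 48.0 ± 20.8 in Ctrl (SD, n = 3 each), a ratio of 5.14%, and Apoe stood at the lowest end of all 12787 tested genes by log2 difference (-3.71). This is the contrast behind the choice of the gene, so no test is given. In plasma cells, Apoe averaged 3.52 ± 0.621 in KO and 20.2 ± 10.1 in Ctrl (SD, n = 3 each), 5.75-fold lower in KO. It fell by 2.09 on the log2 scale (SE 0.35, 95% interval -2.83 to -1.36, limma adjusted p = 0.004), again further than any other tested gene. If plasma and activated libraries share mice, this test is not independent of the choice of the gene. The call was kept in all 23 alternative settings, with log2 changes of -2.65 to -1.47 and adjusted p-values of 2.29e-05 to 0.0415. The estimated reads behind these values were 29 to 51 in plasma KO and 100 to 337 in plasma Ctrl libraries, and 15 to 69 in activated KO and 362 to 1039 in activated Ctrl libraries. In naive cells the difference was -0.09 (SE 0.35, 95% interval -0.82 to 0.64, limma adjusted p = 0.905), an interval that still includes a KO level up to 0.82 log2 units lower.

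The KO effect on Apoe in plasma cells minus that in naive cells was -2.0 (95% interval -3.04 to -0.97), with a limma adjusted p of 0.0516, just outside the threshold. It was under 0.05 in 4 of 22 alternative settings, over which the adjusted p ran from 0.00707 to 0.443. Between plasma and naive cells Apoe fell in both genotypes, by 4.36 on the log2 scale in KO (limma adjusted p = 4.24e-09) and by 2.36 in Ctrl (adjusted p = 1.24e-05). Among KO libraries the plasma level was 3.78% of the naive level, and among Ctrl libraries 20.7%. In RNA from pooled cells, fewer cells that express a gene and less RNA per cell cannot be told apart.

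**Figure D1:**
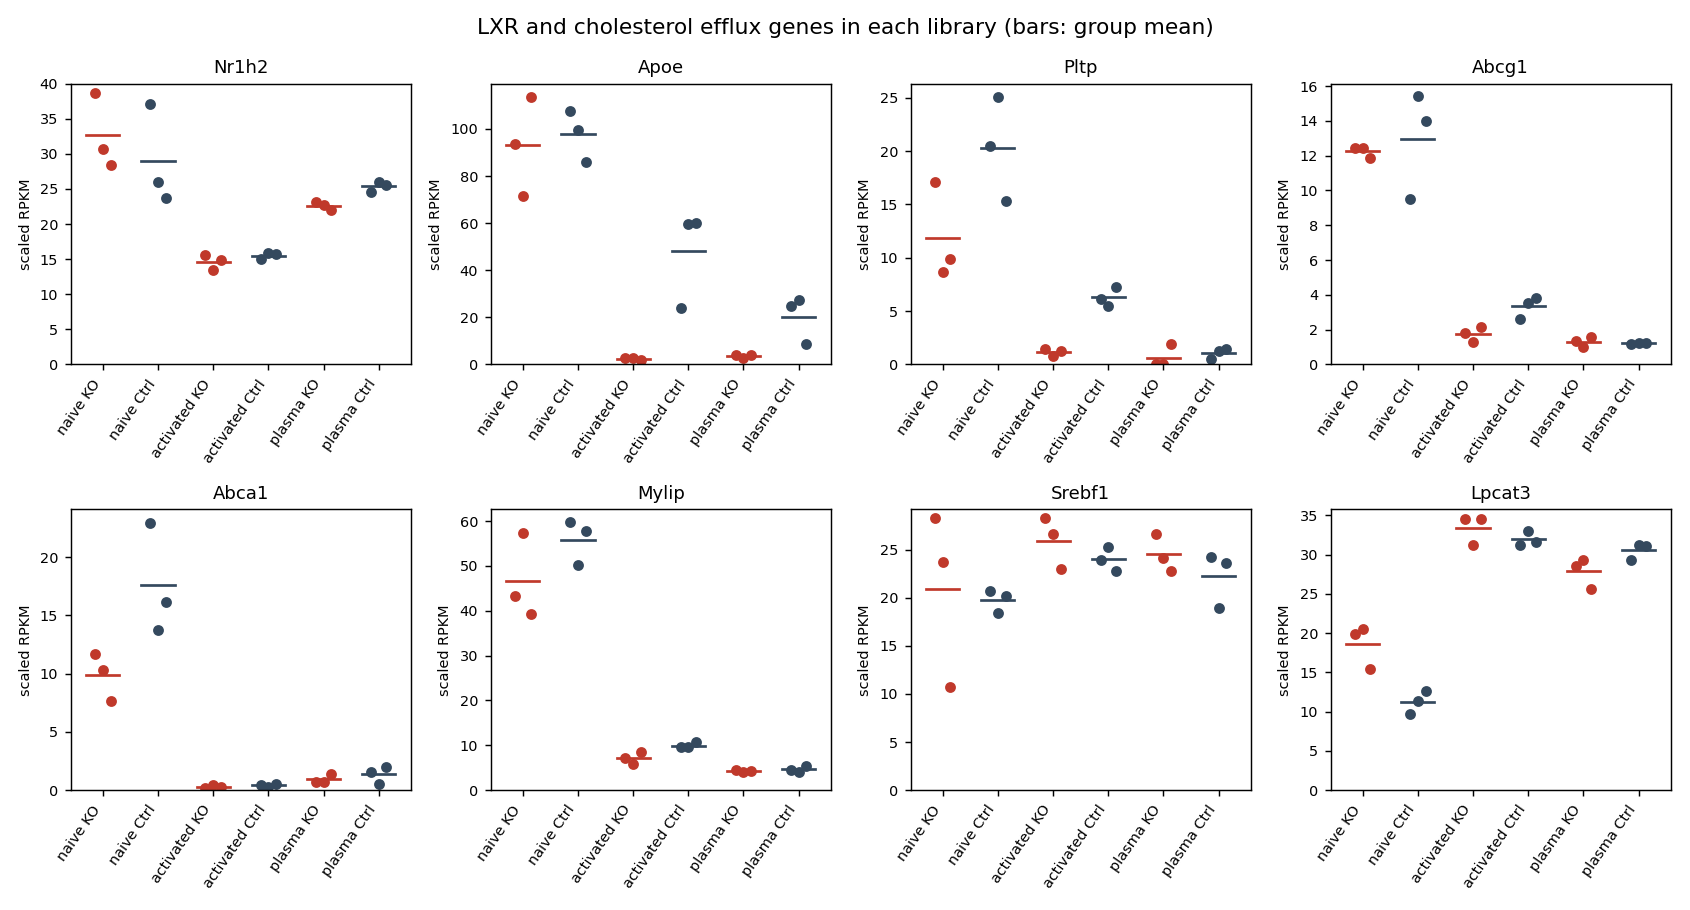
Scaled RPKM of the 8 LXR and cholesterol efflux genes in each of 18 libraries, by cell type, with KO (red) left of Ctrl (dark blue); points are libraries and bars group means, and each panel has its own axis from 0. Apoe is 2.04 to 3.91 in all 6 activated and plasma KO libraries and 8.67 to 60.2 in the matching Ctrl libraries, while naive libraries run from 71.7 to 114.

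Macrophages make Apoe and many other genes of the LXR pathway, and their markers were measured beside it. Of 20 markers 15 are in the table. Their summed scaled RPKM was 143 to 217 in naive KO and 200.0 to 216 in naive Ctrl libraries, 31.0 to 63.9 in activated KO and 36.3 to 41.8 in activated Ctrl, and 51.4 to 126 in plasma KO and 32.1 to 57.6 in plasma Ctrl. In activated cells, where Apoe differed most, the sums of the genotypes overlapped, and 10 of the 15 markers in KO and 9 in Ctrl averaged under 1. C1qa averaged 0.556 in KO and 0.209 in Ctrl libraries, Csf1r 0.335 in KO and 0.388 in Ctrl, and Vcam1 0.209 in KO and 0.268 in Ctrl. Lyz2 averaged 9.34 in KO and 1.57 in Ctrl, mainly through activated KO 3, at 26.3. That library also had the highest marker sum (63.9) and a C1qa of 1.67, where activated KO 1 and 4 had 0. Cd68 (13.3 in KO and 12.4 in Ctrl) and Itgam (13.3 in KO and 17.2 in Ctrl) were not near 0 and were the largest parts of the activated sums on average. Cd68 averaged 11.6 in naive KO and 10.9 in naive Ctrl libraries, and Itgam 2.04 in naive KO and 2.49 in naive Ctrl. Neither mean was thus lower in activated than in naive cells, which limits the activated sum as a measure of macrophage RNA. Of the 15 markers 0 were called in activated cells (limma; 1 had an unadjusted p under 0.05). Lower in KO without overlap were 2 of the 15, near the 16% among all tested genes. These were Itgam, and Adgre1, which encodes F4/80 (0.561 in KO and 2.53 in Ctrl, log2 change -1.18, limma adjusted p = 0.427). Their part in the Apoe difference was not tested. In plasma cells 1 of the 15 markers passed limma, against 0.61% of all tested genes. It was Mrc1, the mannose receptor (29.6 in KO and 8.51 in Ctrl libraries, log2 change 1.68, limma adjusted p = 0.0019). The plasma sum was higher on average in KO mainly through Mrc1 and library KO 4: without Mrc1 it was 26.2, 25.9 and 93.0 in plasma KO libraries 1, 3 and 4, against 24.6, 29.1 and 48.8 in plasma Ctrl libraries. Hmox1, the haem oxygenase, was the only 1 of the 15 markers lower in plasma KO without overlap, against 13.6% of all tested genes. It had 3.09 to 4.83 in KO and 5.39 to 11.7 in Ctrl libraries (log2 change -0.88, limma adjusted p = 0.36), and its part in the Apoe difference was not tested. Without plasma KO 4 and plasma Ctrl 4, the libraries with the highest marker sum in their groups, the Apoe change in plasma cells was -2.65 (limma adjusted p = 0.00107), an alternative chosen after the data were seen. Plasma Ctrl 4 also had the lowest Apoe of its group (8.67), so leaving it out widens the difference whatever the markers do. The part of macrophage RNA in the difference was not tested. None of the 15 markers was at 0 in all libraries of a group.

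In the step between plasma and naive cells, macrophage markers moved with Apoe. Of the 15 markers 12 fell and 1 rose in Ctrl, with a median log2 change of -2.10, and 13 fell and 1 rose in KO, with a median of -2.19; over all tested genes the medians were -0.37 in Ctrl and -0.27 in KO. Erythroid markers moved too, with a summed level of 0.635 to 45.4 in plasma KO and at most 0.764 in plasma Ctrl libraries, against 267 to 495 in naive KO and 284 to 374 in naive Ctrl libraries. Their part in the step of Apoe and the other LXR genes between these cells was not tested. Between genotypes, the haemoglobin gene Hbb-bs averaged 19.1 in activated KO and 3.97 in activated Ctrl libraries (limma adjusted p = 0.203), whereas Hba-a2 averaged 0.154 in activated KO and 0.471 in activated Ctrl libraries. The T cell gene Cd3e averaged 8.71 in plasma KO and 0.0767 in plasma Ctrl libraries (limma adjusted p = 0.00126), whereas Cd4 averaged 0.0559 in plasma KO and 0.0645 in plasma Ctrl libraries. The part of these in the genotype differences was not tested.

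**Figure D2:**
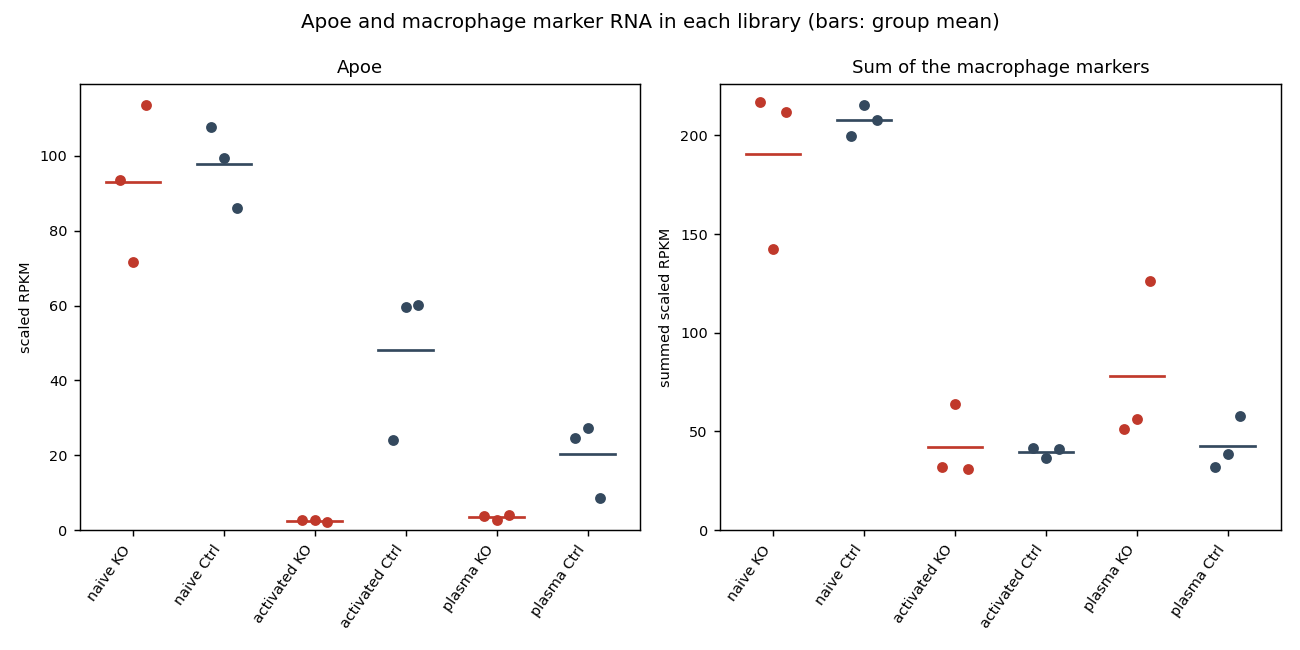
Apoe (left, scaled RPKM) and the summed scaled RPKM of 15 macrophage markers (right) in each library, with KO (red) left of Ctrl (dark blue) within each cell type; bars are group means. In activated cells Apoe averaged 2.47 in KO and 48.0 in Ctrl while the marker sums of both genotypes lay between 31.0 and 63.9. Cd68 and Itgam were the largest parts of the activated sums on average.

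The 250 bases before the Apoe start are shown because LXR targets are often searched for a receptor site near their start; Apoe itself is known to be controlled through distant enhancers. The sequence is from RefSeq on GRCm38.p6, chr7:19699189-19699438, reverse strand, read 5′ to 3′, and capitals mark the letters GGTCA, the last letters of the receptor motif AGGTCA.
Apoe: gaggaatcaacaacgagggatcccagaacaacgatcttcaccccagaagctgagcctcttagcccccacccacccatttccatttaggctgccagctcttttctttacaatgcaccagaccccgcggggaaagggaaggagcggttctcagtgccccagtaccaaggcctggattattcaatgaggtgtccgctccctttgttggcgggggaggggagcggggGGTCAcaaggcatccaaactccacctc
GGTCA, a string chosen after the windows were seen, occurs on either strand in 40.5% of the 32851 RefSeq windows of the same length (250 bases before to 50 after a start), so its presence is common. The classical LXR site is a pair of AGGTCA motifs in the same orientation with 4 letters between them. Searched on both strands, it was exact in 5 windows (0.0152%) and present with up to 2 letters different in 993 (3.02%). AGGTCA alone was in 16.3% of windows, and the sterol element TCACNCCAC in 1.24%. None of the windows of the 8 genes that have one (all but Abcg1, with Nr1h3 included) held AGGTCA, the sterol element or the pair with up to 2 letters different. The nearest to the pair were the window of Abca1 and a window of Srebf1, at 3 letters different, just past this limit. Both hold the repeat printed further below. The search says only that these letters are not in these windows, not that the windows lack a receptor site.

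Pltp encodes the phospholipid transfer protein of plasma, which moves phospholipid between lipoproteins. It measured 17.1, 8.65 and 9.91 in naive KO libraries 1 to 3, against 20.5, 25.1 and 15.4 in naive Ctrl libraries. Activated KO libraries 1, 3 and 4 had 1.43, 0.800 and 1.26, against 6.17, 5.50 and 7.23 in activated Ctrl libraries. Plasma KO libraries 1 and 3 were listed at 0 and library 4 at 1.94, against 0.523, 1.25 and 1.44 in plasma Ctrl libraries. The genotypes were clearly apart in activated cells only, where the KO mean was 18.5% of the Ctrl mean and the log2 difference of -1.76 was the ninth lowest of all tested genes, given as a description. Plasma KO 4, the only plasma KO library with Pltp, is also the one with the highest macrophage marker sum of its group (126).

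Pltp was not called between genotypes in plasma cells (log2 change -0.50, 95% interval -1.26 to 0.25, limma adjusted p = 1) or in naive cells (-0.76, 95% interval -1.51 to -0.0022, adjusted p = 0.207). Only 0 to 24 estimated reads per library lie behind the plasma KO values and 8 to 20 behind the plasma Ctrl values. In the fit of the plasma libraries alone without plasma KO 4 the change reached the threshold (limma adjusted p = 0.0419). That fit, chosen after the data were seen, leaves plasma KO 1 and 3, both listed at 0, so its direction follows from the choice. It was the only 1 of 23 alternative settings under 0.05. Between plasma and naive cells Pltp fell by 3.12 in KO (limma adjusted p = 6.21e-07) and by 3.37 in Ctrl (adjusted p = 2.16e-07).

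Abca1 and Abcg1 encode the membrane transporters that hand cholesterol to apolipoproteins and to high density lipoprotein. Abca1 measured 11.7, 10.3 and 7.65 in naive KO libraries 1 to 3, against 23.0, 13.7 and 16.1 in naive Ctrl libraries. Every naive KO library lay below every naive Ctrl library, with a log2 change of -0.76 that did not pass over all genes (95% interval -1.34 to -0.19, limma adjusted p = 0.0937; under 0.05 in 2 of 15 alternative settings). Activated libraries 1, 3 and 4 had 0.202, 0.422 and 0.282 in KO, against 0.427, 0.248 and 0.555 in Ctrl. Plasma libraries 1, 3 and 4 had 0.707, 0.672 and 1.40 in KO, against 1.58, 0.506 and 2.01 in Ctrl. Both later cell types overlapped between genotypes at levels of 0.202 to 2.01.

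Abcg1 measured 12.5, 12.4 and 11.9 in naive KO libraries 1 to 3, against 9.51, 15.4 and 14 in naive Ctrl libraries. Activated libraries 1, 3 and 4 had 1.80, 1.31 and 2.14 in KO, against 2.63, 3.52 and 3.84 in Ctrl. Plasma libraries 1, 3 and 4 had 1.33, 1.03 and 1.59 in KO, against 1.17, 1.20 and 1.24 in Ctrl. The activated KO mean was 52.5% of the Ctrl mean with no overlap, whereas naive and plasma libraries overlapped. The intervals of the KO effect were -0.50 to 0.40 in naive cells (limma adjusted p = 0.91) and -0.38 to 0.51 in plasma cells (adjusted p = 1).

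The largest change of both transporters was between cell types. Between plasma and naive cells Abca1 fell by 2.50 in KO (limma adjusted p = 3.15e-07) and by 3.0 in Ctrl (adjusted p = 2.59e-08). Abcg1 fell by 2.52 in KO (limma adjusted p = 9.76e-09) and by 2.64 in Ctrl (adjusted p = 5.12e-09). Activated libraries, as a description, held Abca1 at 3.06% of the naive mean in KO and 2.33% in Ctrl, and Abcg1 at 14.3% of the naive mean in KO and 25.7% in Ctrl.

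Mylip encodes a ubiquitin ligase, also called IDOL, that limits lipoprotein uptake. It measured 43.4, 57.4 and 39.4 in naive KO libraries 1 to 3, against 59.8, 50.1 and 57.7 in naive Ctrl libraries. Activated libraries 1, 3 and 4 had 7.16, 5.81 and 8.50 in KO, against 9.61, 9.54 and 10.7 in Ctrl. Plasma libraries 1, 3 and 4 had 4.60, 4.15 and 4.34 in KO, against 4.49, 4.12 and 5.43 in Ctrl. The KO libraries were lower without overlap in activated cells, where the mean was 71.9% of Ctrl, and overlapped with Ctrl elsewhere. Mylip was not called between genotypes in naive cells (log2 change -0.27, 95% interval -0.62 to 0.09, limma adjusted p = 0.352) or plasma cells (-0.08, 95% interval -0.43 to 0.28, adjusted p = 1). Between plasma and naive cells it fell by 3.14 in KO (limma adjusted p = 1.65e-11) and by 3.33 in Ctrl (adjusted p = 6.67e-12).

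Srebf1 encodes SREBP1, the transcription factor of fatty acid synthesis, and Lpcat3 an enzyme that puts polyunsaturated fatty acids into membrane phospholipids. Srebf1 measured 28.3, 23.8 and 10.8 in naive KO libraries 1 to 3, against 20.8, 18.4 and 20.1 in naive Ctrl libraries. Activated libraries 1, 3 and 4 had 28.3, 26.6 and 23.0 in KO, against 23.9, 25.3 and 22.8 in Ctrl. Plasma libraries 1, 3 and 4 had 26.6, 24.2 and 22.8 in KO, against 24.2, 18.9 and 23.6 in Ctrl. All 3 cell types overlapped between genotypes, and no cell type stood far from another, so Srebf1 did not follow the other lipid genes across cell types. Its KO effect lay within -0.50 to 0.46 in naive and -0.34 to 0.62 in plasma cells (95% intervals; limma adjusted p = 0.969 and 1), and its step between plasma and naive cells was 0.32 in KO (adjusted p = 0.236) and 0.16 in Ctrl (adjusted p = 0.557).

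Lpcat3 ran the other way across cell types. It measured 19.8, 20.6 and 15.5 in naive KO libraries 1 to 3, against 9.71, 11.4 and 12.6 in naive Ctrl libraries. Activated libraries 1, 3 and 4 had 34.5, 31.2 and 34.5 in KO, against 31.2, 33.0 and 31.6 in Ctrl. Plasma libraries 1, 3 and 4 had 28.6, 29.3 and 25.6 in KO, against 29.3, 31.3 and 31.1 in Ctrl. Every naive KO library was above every naive Ctrl library, and Lpcat3 rose there by 0.68 (SE 0.13, 95% interval 0.40 to 0.95, limma adjusted p = 0.00597), 1.66-fold by the means. Naive libraries vary more than the others, and this call rests on a spread shared by all 18 libraries: in the fit of the 6 naive libraries alone the limma adjusted p was 0.698, and with library weights 0.386. Each of these fits called 0 of all 12787 tested genes in naive cells, so neither sets Lpcat3 apart from other genes. Plasma cells did not follow (log2 change -0.13, 95% interval -0.41 to 0.14, limma adjusted p = 1). The KO effect in plasma cells minus that in naive cells was -0.81 (95% interval -1.20 to -0.42, limma adjusted p = 0.0354), a call kept in 11 of 22 alternative settings and lost without any 1 of plasma KO 1, 3 or 4 or plasma Ctrl 1, 3 or 4, where the adjusted p was 0.0643 to 0.123.

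**Figure D3:**
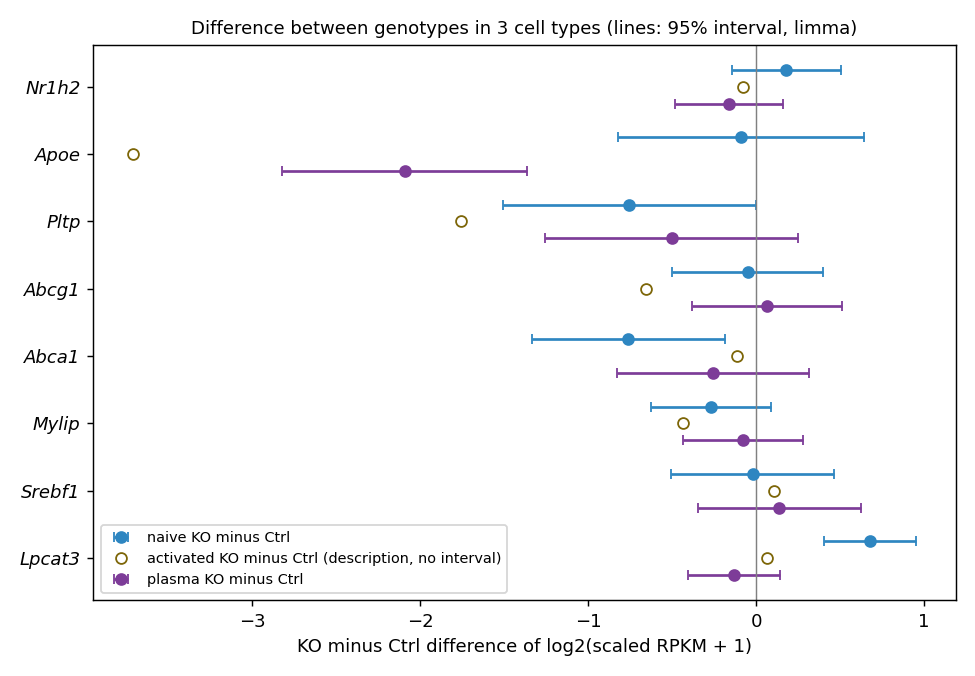
KO minus Ctrl difference of log2(scaled RPKM + 1) for the 8 genes in naive (blue), activated (open circles, described without an interval) and plasma cells (purple); lines are 95% intervals from limma. The intervals of Apoe in plasma cells (-2.83 to -1.36) and Lpcat3 in naive cells (0.40 to 0.95) belong to the calls; Apoe in activated cells is at -3.71.

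Read together, 1 of the 8 genes was called between genotypes in plasma cells (Apoe, lower), against 0.61% of all tested genes in either direction and 0.172% lower. Apoe, Nr1h2 and Lpcat3 were lower there without overlap, 3 of 8 against 13.6% of all genes. In naive cells 1 of 8 was called (Lpcat3, higher), against 7.23% of all genes in either direction and 2.1% higher. In the difference of the KO effects 1 of 8 was called (Lpcat3, lower), against 1.38% in either direction and 0.438% lower. In activated cells 4 of the 8 (Apoe, Pltp, Abcg1 and Mylip) were lower in KO with no overlap and 0 higher, against 16% lower and 15.3% higher among all tested genes, where limma called 1.78%; since these libraries lie behind the choice, nothing is read from that count. The median log2 difference of the 8 genes was -0.07 in naive cells, -0.27 in activated cells and -0.15 in plasma cells, and that of all tested genes -0.09, -0.02 and -0.0036.

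Between plasma and naive cells 6 genes fell and 1 rose in KO, and 5 fell and 1 rose in Ctrl. Of all tested genes 61.9% were called in KO (37.1% lower and 24.7% higher) and 68.7% in Ctrl (44.4% lower and 24.3% higher), so calls were common in this step. The median change of the 8 genes was -2.51 in KO and -2.50 in Ctrl, beside medians of -0.27 and -0.37 over all tested genes. In order of level, naive Ctrl cells had Apoe first and Mylip next, then Nr1h2 (29.0 ± 7.19), Pltp (20.3 ± 4.86), Srebf1 (19.8 ± 1.21), Abca1 (17.6 ± 4.79), Abcg1 (13 ± 3.09) and Lpcat3 (11.2 ± 1.45; SD, n = 3 each); neighbours in this order overlapped from Nr1h2 down to Lpcat3. In plasma Ctrl cells the order began with Lpcat3 (30.6 ± 1.07), Nr1h2 (25.4 ± 0.697), Srebf1 (22.3 ± 2.90) and Apoe (20.2 ± 10.1), the last overlapping with its neighbours, and Abca1, Abcg1 and Pltp were all between 1.07 and 1.37. In plasma KO cells Apoe (3.52 ± 0.621) stood below Mylip (4.36 ± 0.224). Among all tested genes 5.74% were higher than Apoe in naive KO and 5.01% in naive Ctrl, 67.8% in activated KO and 13.6% in activated Ctrl, and 62.5% in plasma KO and 28.7% in plasma Ctrl.

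The genes nearest to Apoe in pattern were sought among 8952 genes that reached 5 scaled RPKM in a group, by the root mean square difference between values standardised over the 18 libraries. The 6 nearest were Ctsa (0.281), Ppp3ca (0.314), Tcn2 (0.341), Gm2a (0.366), Ephx1 (0.370) and Crlf2 (0.426). Ctsa encodes the lysosomal protein cathepsin A, Gm2a the lysosomal activator of ganglioside breakdown, and Tcn2 the vitamin B12 carrier transcobalamin. Means of Ctsa were 66.4 in naive KO and 77.2 in naive Ctrl libraries, 28.1 in activated KO and 50.5 in activated Ctrl, and 28.9 in plasma KO and 40.0 in plasma Ctrl. Ephx1, an epoxide hydrolase, had 66.4 in naive KO and 82.0 in naive Ctrl, 4.52 in activated KO and 20.3 in activated Ctrl, and 6.69 in plasma KO and 10.3 in plasma Ctrl. Each of these 6 genes had its lowest means in the KO of activated or plasma cells. Of the other LXR genes Pltp was closest to Apoe, at 0.509, with 0.413% of the candidates closer; Abcg1 followed at 0.578, Mylip at 0.633 and Abca1 at 0.728, whereas Srebf1 (1.67) and Lpcat3 (1.78) were far. Abcg1 itself was closest to Ppp1r15a (0.152), Rasgef1b (0.162) and S1pr1 (0.170). S1pr1, the receptor that lets lymphocytes leave tissue, averaged 166 in naive KO and 183 in naive Ctrl, 22.1 in activated KO and 51.2 in activated Ctrl, and 21.1 in plasma KO and 18.1 in plasma Ctrl. These are descriptions over libraries that share cell types, with no test. The 18 libraries include the activated ones behind the choice of the LXR genes. Closeness of these genes to Apoe follows in part from that choice, and nothing is read from it.

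Genes beside Apoe on chromosome 7 were not called lower in KO. The apolipoprotein genes Apoc1, Apoc2 and Apoc4, and Nectin2 and Bcam, were not analysed here. Of the 3 others, Clptm1, a membrane protein gene (19631571 to 19665033), rose in naive KO, with 42.6, 48.8 and 51.3 against 32.0, 34.3 and 38.4 in naive Ctrl libraries (ordered by value; log2 change 0.44, limma adjusted p = 0.0184; 0.708 in the fit of naive libraries alone). The fit of naive libraries alone called 0 of all 12787 tested genes. In activated cells Clptm1 averaged 45.9 in KO and 45.1 in Ctrl, and in plasma cells 74.8 in KO and 80.1 in Ctrl. Tomm40, of the mitochondrial import pore (19701313 to 19715438), is the next gene upstream; it averaged 18 in naive KO and 23.7 in naive Ctrl, lower without overlap (log2 change -0.38, limma adjusted p = 0.0894). Tomm40 averaged 44.4 in activated KO and 31.5 in activated Ctrl (log2 change 0.49, limma adjusted p = 0.085; called higher in the fit of own libraries, 0.0253) and 34.2 in plasma KO and 29.1 in plasma Ctrl (adjusted p = 1). Relb averaged 25.8 in activated KO and 29.2 in activated Ctrl, and 9.38 in plasma KO and 9.90 in plasma Ctrl, with no call.

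Further pathway genes were taken from 6 lists, of which 64 genes were tested. Between genotypes 1 of them was called in naive cells (Clptm1), 1 in activated cells and 0 in plasma cells, where 5 had an unadjusted p under 0.05. Over all tested genes 24% in naive, 10.1% in activated and 5.87% in plasma cells had an unadjusted p under 0.05. The call in activated cells was Cyp27a1, which makes the LXR ligand 27-hydroxycholesterol. It was at 0.712, 0.861 and 0.932 in activated KO libraries, against 2.55, 3.0 and 3.30 in activated Ctrl libraries (each ordered by value). The groups did not overlap, and Cyp27a1 fell by 1.10 on the log2 scale (SE 0.22, limma adjusted p = 0.0125). Elsewhere it averaged 40.2 ± 12.7 in naive KO and 39.2 ± 6.52 in naive Ctrl libraries, and 2.32 ± 0.302 in plasma KO and 1.96 ± 0.291 in plasma Ctrl libraries (SD, n = 3 each). It was thus high in naive cells of both genotypes, and the genotypes overlapped in plasma cells (log2 change 0.17). The call was lost without activated Ctrl 3, activated Ctrl 4 or activated KO 1 (limma adjusted p = 0.0568 to 0.0882), with a pseudocount of 5 (0.26) and with quantile normalization (0.0811).

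Among 11 other LXR targets and partners tested, 0 were called between genotypes in any cell type over all 18 libraries (limma; 0 with an unadjusted p under 0.05 in naive, 1 in activated and 1 in plasma cells). Fasn, the fatty acid synthase, had 19.2, 23.5 and 27.7 in activated KO libraries, against 10.1, 11.6 and 14.4 in activated Ctrl libraries (ordered by value). Scd2, a stearoyl-CoA desaturase, had 104, 109 and 111 in activated KO against 70.8, 71.7 and 80.9 in activated Ctrl, and 60.7, 63.5 and 65.6 in plasma KO against 32.0, 36.9 and 39.9 in plasma Ctrl. In the fit of own libraries Fasn rose in activated KO (log2 change 0.91, limma adjusted p = 0.00623) and Scd2 in activated KO (0.53, adjusted p = 0.00326) and plasma KO (0.79, adjusted p = 0.00103). Over all 18 libraries the adjusted p was 0.159 for Fasn in activated cells, and 0.69 and 0.585 for Scd2 in activated and plasma cells. Scd1, which is also a desaturase, averaged 120.0 in activated KO and 142 in activated Ctrl libraries and 18.8 in plasma KO and 19.2 in plasma Ctrl libraries, without a call.

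Abca1, Srebf1 and Fasn, which differ in their values, share a repeat near a start. A repeat made of GGGTTA and CGGTCA with 4 letters between them was chosen after the windows of Abca1 and Srebf1 had been seen, so its presence in those follows from the choice. Exact matches on either strand are in 3 of the 32851 windows (0.00913%), and the third is Fasn. The stretches are 60 bases each from RefSeq on GRCm38.p6, reverse strand of the genome, read 5′ to 3′ in the direction of the gene, with capitals for the repeat in reverse complement: chr4:53159925-53159984 for Abca1 (repeat 67 to 52 bases before the start), chr11:60210616-60210675 for Srebf1 (182 to 167 bases before the most downstream of 3 starts) and chr11:120824735-120824794 for Fasn (225 to 210 bases before a start).
Abca1: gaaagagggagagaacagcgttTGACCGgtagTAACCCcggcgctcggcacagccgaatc
Srebf1: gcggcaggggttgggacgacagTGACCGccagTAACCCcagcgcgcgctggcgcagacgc
Fasn: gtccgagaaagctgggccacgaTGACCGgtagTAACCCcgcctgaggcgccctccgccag
The Apoe stretch printed above has no such repeat. The 3 genes that carry it did not move together: Abca1 was at 2.33% of its naive mean in activated Ctrl cells, where Srebf1 and Fasn were not lower than in naive Ctrl cells by mean. A match is a description of the letters and shows no binding.

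Genes of the SREBP2 pathway make and take up cholesterol. Over all 18 libraries 0 of the 20 tested were called between genotypes in activated or plasma cells (limma; 4 had an unadjusted p under 0.05 in activated and 4 in plasma cells, all higher, against 10.1% and 5.87% of all tested genes in either direction). Of the 20, 17 were above 0 in activated and 15 in plasma cells, with medians of 0.33 and 0.17 on the log2 scale, against medians over all genes of -0.02 and -0.0036. In the fit of own libraries 6 rose and 0 fell in activated KO, where 11.3% of all genes were called and 5.26% rose, and 7 rose and 0 fell in plasma KO, where 5.11% were called and 2.38% rose. Idi1, an isomerase of sterol synthesis, had 41.9, 42.0 and 45.7 in activated KO libraries against 22, 27.8 and 33.1 in activated Ctrl, and 26.3, 27.0 and 29.8 in plasma KO against 18, 20.9 and 22.4 in plasma Ctrl (ordered by value). No KO library of these overlapped with Ctrl. In the fit of own libraries Idi1 rose by 0.64 in activated cells (limma adjusted p = 0.0138) and by 0.43 in plasma cells (adjusted p = 0.0337).

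Insig1, which holds the SREBP complex in the endoplasmic reticulum, averaged 43.9 ± 6.13 in activated KO and 35.9 ± 9.02 in activated Ctrl, with overlap, and 110 ± 6.93 in plasma KO and 76.6 ± 2.88 in plasma Ctrl without overlap (SD, n = 3 each; own libraries, limma adjusted p = 0.273 and 0.00312). Srebf2, the transcription factor itself, averaged 77.7 in activated KO and 69.9 in activated Ctrl, and 74.9 in plasma KO and 66.5 in plasma Ctrl, with no call. In naive cells 0 of the 20 were called in either fit (limma; 8 had an unadjusted p under 0.05, 3 higher, against 24% of all tested genes in either direction) and the median was -0.28. Of all 12787 tested genes 7.23% were called there over all 18 libraries, and 0 in the fit of own libraries.

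**Figure D4:**
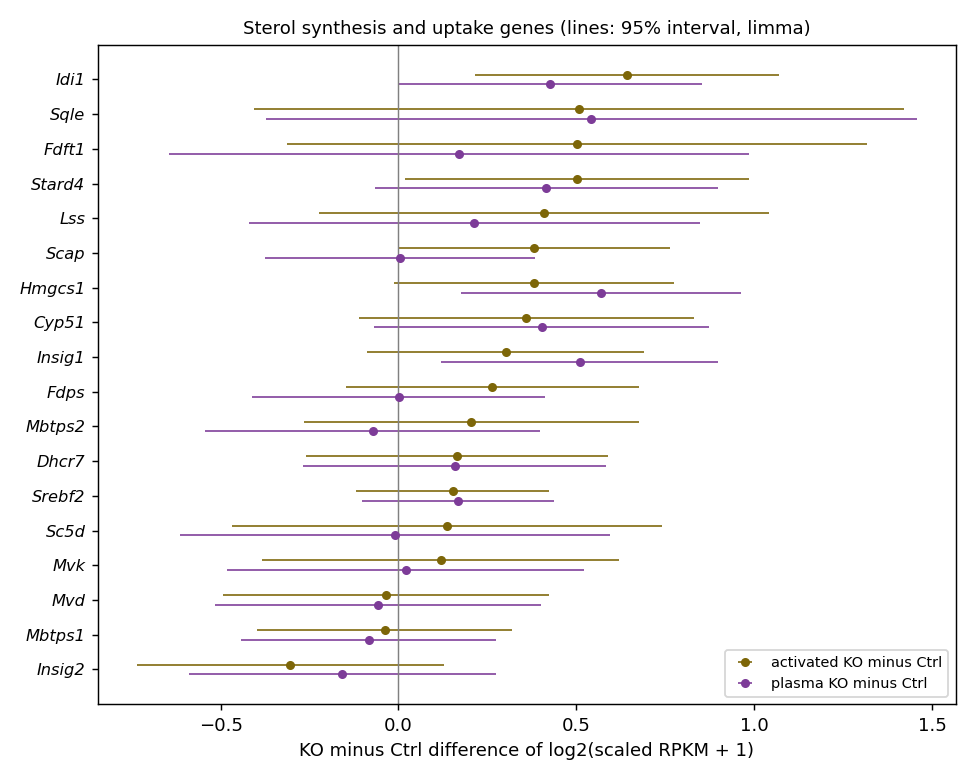
KO minus Ctrl difference of log2(scaled RPKM + 1) for 18 of the 20 sterol synthesis and uptake genes in activated (brown) and plasma cells (purple), sorted by the activated value; points are limma estimates over all 18 libraries and lines 95% intervals. Of the 18 points 15 in activated and 13 in plasma cells lie above 0, with Idi1 at 0.64 and 0.43, and no gene passed after adjustment over all genes.

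The remaining lists held few differences between genotypes. Of 12 nuclear receptor coregulators 0 were called over all 18 libraries in activated or plasma cells (limma; 0 with an unadjusted p under 0.05), and in the fit of own libraries Hdac3, the histone deacetylase of the corepressor complex, rose in activated KO (69.6 ± 1.93 in KO and 57.4 ± 0.910 in Ctrl, SD, n = 3 each; adjusted p = 0.03). Of 14 lipoprotein receptor and endosomal genes 0 were called over all libraries (limma; 1 with an unadjusted p under 0.05 in activated and 0 in plasma cells). In the fit of own libraries 2 of these 14 fell in activated KO and 0 rose. Over all 12787 tested genes that fit called 11.3%, with 770 genes lower. Of the 12 coregulators it called 1, Hdac3. Npc2, which carries cholesterol out of lysosomes, averaged 18.8 ± 4.28 in KO and 28.6 ± 1.71 in Ctrl (log2 change -0.60, limma adjusted p = 0.0281), and Stard3, a sterol transfer protein of late endosomes, 11.6 ± 0.462 in KO and 16 ± 0.537 in Ctrl (-0.44, adjusted p = 0.0148; SD, n = 3 each). Npc1, the membrane partner of Npc2, averaged 1.59 in activated KO and 1.95 in activated Ctrl. The Apoe receptor genes Lrp8 and Vldlr were near the detection limit, Lrp8 at 1.70 in activated KO and 1.07 in activated Ctrl and Vldlr at 0.270 in activated KO and 0.285 in activated Ctrl, with no call. Soat1, which stores cholesterol as ester, was lower in activated KO (9.09 ± 1.07) than in activated Ctrl (12.6 ± 1.21) and passed in the fit of own libraries (adjusted p = 0.0434). Ch25h was not analysed here.

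Across cell types in Ctrl, 39 of the 64 pathway genes were called between activated and naive cells, against 58.4% of all tested genes (19% higher and 39.4% lower). Of the 20 sterol synthesis and uptake genes 12 rose and 1 fell. Idi1 averaged 27.6 in activated and 4.30 in naive Ctrl cells (log2 change 2.44, limma adjusted p = 2.98e-08) and Fdps 93.5 in activated and 19.8 in naive Ctrl cells (2.24, adjusted p = 5.52e-08), and Hmgcs1 and Cyp51 rose by 1.37 and 1.5. These 4 are enzymes of cholesterol synthesis. Of the 11 other LXR targets and partners 1 rose, Scd2 (log2 change 2.07, limma adjusted p = 3.05e-05), and 5 fell, among them Mertk, a receptor for dying cells (-2.37), Smpdl3a (-1.99) and the lipase Lpl (-1.04). Cyp27a1 fell by 3.34 (limma adjusted p = 1.99e-09) and Cyp7b1, which breaks down oxysterols, by 1.52. Of 14 lipoprotein receptor and endosomal genes 2 rose and 7 fell, with the scavenger receptor Cd36 at 2.88 (limma adjusted p = 7.98e-08) and the sorting receptor Sorl1 at -1.90 (adjusted p = 1.47e-07). Abca7 was at -0.91 and Msr1 at -1.64. Of the 12 coregulators 2 rose and 5 fell, with Gps2 at -0.84, Ep300 at -0.90, Crebbp at -0.88 and Ncoa3 at -0.60. Macrophage markers moved with this step, 12 of 15 lower and 1 higher with a median of -3.05, and their part in it was not tested.

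Between plasma and activated Ctrl cells 19 of the 64 were called, against 32.8% of all tested genes. Scd1 fell by 2.83 (19.2 in plasma and 142 in activated Ctrl cells, limma adjusted p = 2.5e-11) and Scd2 by 1.02. Of the sterol synthesis genes 5 rose and 2 fell, with Insig1 at 1.10, Mbtps1 at 0.93, Insig2 at 0.91 and Hmgcs1 at -1.34. Of the lipoprotein receptor and endosomal genes 2 rose and 2 fell: Npc2 (log2 change 1.43, limma adjusted p = 5.51e-06), Osbp (1.47), Sorl1 (-4.14, adjusted p = 1.58e-12) and Scarb1 (-1.07). Soat1 fell by 0.93, and of the coregulators Ncoa2 rose by 1.36 while Ncoa3 and Tbl1x fell by 0.51 and 0.67.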

How the data were processed

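The authors deposited 1 table of RPKM values with 1 column per library for 12960 detected genes; per the submitters' processing notes STAR and the build mm10 were used, while their versions, the gene models, strand use and the counter are not stated by any source used here. The members and lists were chosen with earlier results of these data known. Each library's RPKM were scaled by the median of its ratios to a common reference (8012 genes; factors 0.903 to 1.07). Genes with a group mean of at least 1 (12787) were fitted as log2(scaled RPKM + 1) with 6 group means over all 18 libraries in limma 3.58.1 (R 4.3.3, lmFit and eBayes with trend, two-sided), with Benjamini-Hochberg adjustment over all of them. "The fit of own libraries" uses only the groups compared. Depth was estimated from the steps of low RPKM values times exon length (96.3% of genes matched to GENCODE M21) and covers counting error only. Positions are from GENCODE on GRCm38, and promoter sequences from RefSeq. The test was also run on simulated libraries with independent noise and changes in plasma KO only. Its outcome is not given here, and it cannot speak to shared animals or to naive calls. Besides the members, up to 4 called genes per list and contrast with the smallest adjusted p and a fixed set were named, and Fasn, Soat1, Npc2, Stard3, Hdac3, Tomm40 and Relb and, in its genotype values, Idi1 were chosen after their values were seen. Plots used Python 3.11.15 and matplotlib 3.10.9. Alternatives were other pseudocounts, scalings, filters, library weights, a replicate block, own libraries, and leaving out each library. Some genes and an allele name are not reported here.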

Additional observations from a re-analysis of the deposited data

Results flagged for a closer look

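For Lpcat3 the KO effects in plasma and naive cells differed over all 18 libraries, but not in every fit. The KO effect in plasma cells minus that in naive cells was -0.81 on the log2 scale (limma adjusted p = 0.0354 by the test of the difference itself). It did not pass in the fit of plasma and naive libraries alone (limma adjusted p = 0.213) or over all libraries with library weights (limma adjusted p = 0.199). Lpcat3 averaged 27.9 in plasma KO and 30.6 in plasma Ctrl libraries, and 18.6 in naive KO and 11.2 in naive Ctrl libraries. Naive libraries had the lowest estimated depth (1.63 to 4.05 M reads), and the part of depth in the result was not tested.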

How the results depend on the processing

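Of 16 member calls, 14 were kept under all of their alternatives and 0 changed direction; 255 of 268 values kept the call, and the 13 that lost it belong to Lpcat3. Apoe in plasma cells was called throughout, at -2.65 to -1.47. The number of members called in naive cells, 1, became 3 with a pseudocount of 5, 0 with library weights or own libraries, and 1 to 2 when leaving out each library. In plasma cells it was 1 to 2 when each library was left out. For the difference of KO effects, 1 became 0 with RPKM as deposited, library weights, own libraries or the replicate block, and 0 to 2 when each library was left out. In naive cells library weights or own libraries called 0 of all 12787 tested genes. Pathway genes called in naive cells, 1, became 2 with quantile normalization, 0 with library weights or own libraries and 2 to 9 without single libraries. In activated cells 1 became 0 with quantile normalization, 25 with library weights, 14 with own libraries and 0 to 1 without single libraries. In plasma cells 0 became 12 with library weights, 8 with own libraries, 8 without the 6 naive libraries, and 5, 7, 8, 5, 6 and 6 when own libraries were fitted without plasma Ctrl 1, 3 and 4 and plasma KO 1, 3 and 4. Between plasma and activated Ctrl cells 19 became 35 with library weights and 29 with own libraries. The cause of these changes was not tested. Whether the replicate numbers pair the samples cannot be told from 3 libraries per group. Correlations of deviations ran from -0.21 to 0.31 over 9 pairs of the same cell type and number, and from 0.068 to 0.31 in plasma cells. Pairing between activated and plasma libraries was not checked. With the replicate block, pathway calls in naive cells were 2 and member calls in the difference of KO effects 0. Among the results recomputed, signs turned only for uncalled values. Over single libraries left out, plasma KO minus Ctrl ran from -0.021 to 0.16 for Abcg1, -0.15 to 0.016 for Mylip, -0.091 to 0.076 for Rxra (0.024 without plasma KO 3) and -0.063 to 0.058 for Scd1 (0.0021 without plasma KO 1). Naive KO minus Ctrl ran from -0.25 to 0.083 for Apoe, -0.24 to 0.078 for Abcg1 and -0.28 to 0.38 for Srebf1, and activated KO minus Ctrl from -0.16 to 0.11 for Vldlr. Plasma minus naive ran from -0.28 to 0.029 for Nr1h2 in Ctrl and from -0.081 to 0.58 for Srebf1 in KO. The difference of KO effects ran from -0.27 to 0.53 for Pltp, -0.013 to 0.31 for Abcg1 and -0.24 to 0.42 for Srebf1. Without plasma KO 4 and plasma Ctrl 4, Abcg1 gave -0.010, Mylip 0.018, Rxra 0.029, Scd1 0.072 and the Pltp difference of KO effects -0.13. With RPKM as deposited Scd1 gave 0.031 and the plasma minus naive step of Srebf1 in Ctrl -0.0044. Library weights gave 0.023 for Srebf1 in naive and -0.046 for Lrp8 in plasma cells, and a pseudocount of 0.1 gave -1.19 for the Pltp difference and 0.12 for Vldlr in activated cells. The fits of plasma libraries alone without 1 library, and those without plasma KO 4 and plasma Ctrl 4, were chosen after the data were seen. Few estimated reads lie behind Pltp in plasma cells and Abca1 in activated and plasma cells, which limits their precision.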
